A study of Homo sapiens with 32 samples.

Results

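Complex I and ATP synthase genes encoded in the nucleus were followed through 32 RNA sequencing libraries of human endometrial cancer cell lines. The set held every symbol made of NDUF, a letter A, B, C, S or V and a number, or beginning with ATP5, with more than 1 CPM, a read count scaled to a common library total, in at least 2 of the 32 libraries. Of 97 symbols with these names, 41 ended in P and a number, the mark of a pseudogene, and were left out. ATP5J2LP stayed outside because it was above 1 CPM in 0 libraries, with a highest value of 0.279 CPM. The 55 genes that remained, 37 NDUF and 18 ATP5 genes, belong to 17011 genes at that level and 35238 genes in the table. ATP5L2 lay just inside the limit, above 1 CPM in 2 libraries with a highest value of 1.24 CPM. The other 54 genes were above 1 CPM in all 32 libraries. NDUFA4, once counted with complex I, is now assigned to complex IV, ATP5L2 is a related copy of ATP5L, and ATP5S and ATP5SL, now DMAC2L and DMAC2, are not subunits of the enzyme.

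By the labels' genotype, Ishikawa was wild type for CTNNB1, which encodes beta-catenin, and Ishikawa-S33Y, SNGM and HEC265 were given as CTNNB1-mutated. Every line received 0.1% DMSO as vehicle, paclitaxel, SM08502 or both drugs for 24 h, with 2 libraries in each of the 16 groups. SM08502 blocks CDC-like kinases (CLKs), which phosphorylate splicing factors, and paclitaxel binds microtubules and keeps them from disassembling. The doses, set at 50% inhibition of viability, were 11 nM paclitaxel and 80 nM SM08502 in Ishikawa, 6 and 85 nM in Ishikawa-S33Y, 11.7 and 350.7 nM in SNGM, and 5.6 and 149 nM in HEC265. Doses therefore differed between lines, and a difference between lines cannot be told apart from a difference in dose. RNA input was 350 ng for Ishikawa and 500 ng for the other lines, which cannot be told apart from the line either. Whether Ishikawa-S33Y is a single clone is not given in the sources used here. The cells were plated in duplicate, so p-values rest on the spread between the 2 cultures of a group, which may be technical. In the main fit this spread is pooled over all 16 groups and is not that of the compared groups alone.

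Complex I is the first enzyme of the mitochondrial respiratory chain: it passes electrons from NADH to ubiquinone and pumps protons across the inner membrane. Its core subunits of the matrix arm and its accessory subunits come from nuclear genes, and the core subunits of its membrane arm from mitochondrial DNA. ATP synthase uses the proton gradient: protons turn a ring of c subunits in the membrane, a central stalk carries the rotation into the F1 head, and the head makes ATP while a peripheral stalk holds it still. The c subunit is made from ATP5G1, ATP5G2 and ATP5G3, which encode the same mature protein behind different import sequences.

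Promoter sequence was at hand for 43 of the 55 genes, from RefSeq on GRCh38.p14, and 54 of the 55 symbols matched a RefSeq gene. The 150 bases before the annotated start of 6 genes are shown here, because ATP5G1, NDUFA3 and NDUFB8 were among the largest falls with SM08502 and NDUFA12, NDUFS7 and NDUFS4 among the largest rises. The windows lie at chr17:48892637-48892786 on the plus strand for ATP5G1 (now named ATP5MC1), chr19:54102705-54102854 on the plus strand for NDUFA3 and chr10:100529924-100530073 on the minus strand for NDUFB8. The other windows lie at chr12:95003698-95003847 on the minus strand for NDUFA12, chr19:1383757-1383906 on the plus strand for NDUFS7 and chr5:53560489-53560638 on the plus strand for NDUFS4. The ATP5G1 window falls within the span of LOC105371814, and the other 5 lie outside every annotated gene. Sequences run 5′ to 3′ on the strand of the gene, and capitals mark the letters of 3 searched motifs, namely CCAAT, TGACGTCA and CGCANGCG.
ATP5G1: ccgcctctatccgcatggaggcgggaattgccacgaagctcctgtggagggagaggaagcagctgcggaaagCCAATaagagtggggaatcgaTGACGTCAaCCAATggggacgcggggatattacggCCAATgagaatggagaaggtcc
NDUFA3: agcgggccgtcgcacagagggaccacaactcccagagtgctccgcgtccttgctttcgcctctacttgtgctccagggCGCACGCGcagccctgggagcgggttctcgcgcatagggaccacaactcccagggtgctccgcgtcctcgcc
NDUFB8: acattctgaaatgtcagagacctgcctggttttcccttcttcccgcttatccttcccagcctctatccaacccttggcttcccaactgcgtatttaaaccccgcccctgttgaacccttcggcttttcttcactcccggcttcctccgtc
NDUFA12: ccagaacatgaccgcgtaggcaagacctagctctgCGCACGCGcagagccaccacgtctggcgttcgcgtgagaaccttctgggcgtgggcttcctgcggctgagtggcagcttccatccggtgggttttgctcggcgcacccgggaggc
NDUFS7: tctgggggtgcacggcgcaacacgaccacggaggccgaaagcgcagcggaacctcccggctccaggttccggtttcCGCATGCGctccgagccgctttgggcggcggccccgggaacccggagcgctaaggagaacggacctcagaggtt
NDUFS4: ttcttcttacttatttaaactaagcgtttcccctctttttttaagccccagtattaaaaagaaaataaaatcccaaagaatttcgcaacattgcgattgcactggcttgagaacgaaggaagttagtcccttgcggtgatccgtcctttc

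The ATP5G1 window held CCAAT 3 times and TGACGTCA, the full cAMP response element, 1 time. The windows of NDUFA3, NDUFA12 and NDUFS7 each held CGCANGCG, letters of the site of NRF1 (nuclear respiratory factor), 1 time. Those of NDUFB8 and NDUFS4 held none of these letters. In all, 6 motifs were counted on both strands in the 300 bases from 250 before to 50 after the start. CGCANGCG was found in 15 of the 43 (34.9%), against 17.2% of promoters of tested genes and 10.6% of all promoters. ANATGGCG, letters of a YY1 site, was found in 11 of the 43 (25.6%), against 7.77% of promoters of tested genes and 4.75% of all promoters. CCGGAAG, letters of an ETS site, was found in 9 of the 43 (20.9%), against 17.0% of promoters of tested genes and 10.7% of all promoters. TGACGTCA was found in 4 of the 43 (9.30%), against 2.98% of promoters of tested genes and 1.98% of all promoters. CCAAT was found in 13 of the 43 (30.2%), against 36.1% of promoters of tested genes and 35.7% of all promoters. TATAAA was found in 4 of the 43 (9.30%), against 6.46% of promoters of tested genes and 11.9% of all promoters. These are matches of letters only, and CGCATGCG is read on both strands at a single place.

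Depth lay between 13026400 and 34127623 reads in 30 libraries. The second Ishikawa-S33Y combination library held 2991041 and the second SNGM combination library 1607038 reads, so results that use them are also given without them. The lowest read count of a member other than ATP5L2 was 3, for NDUFS6 in that SNGM library. All 6 epithelial markers were present in every library, between 60.5 and 1616 CPM. Of markers of other cell types, 2 of 5 stromal (PDGFRB and LUM), 1 of 4 leukocyte (CD3E) and 1 of 3 endothelial ones (CDH5) stayed below 1 CPM in every library, and 0 were at 0 throughout. Their summed levels ran from 3.93 to 1160.0 CPM for the stromal list, mostly COL1A1 of Ishikawa-S33Y, 5.24 to 51.8 CPM for the leukocyte list, mostly CD68, and 1.15 to 10.6 CPM for the endothelial list. The highest values of the others were 4.98 CPM for COL1A2, 3.73 CPM for DCN, 2.38 CPM for PTPRC, 2.01 CPM for LYZ, 4.31 CPM for PECAM1 and 8.34 CPM for VWF. The leukocyte sum was 18.4 and 21.6 CPM on vehicle and 37.3 and 35.1 CPM on SM08502 in SNGM, and 9.88 and 9.38 against 35.4 and 39.8 CPM in HEC265. In Ishikawa the stromal sum was 111 and 160.1 CPM on vehicle and 70.5 and 29.9 CPM on SM08502. In Ishikawa-S33Y it was 1160 and 1133 CPM on vehicle and 894 and 819 CPM on SM08502. The epithelial sum of that line was 3484 and 3416 CPM on vehicle, 1999 and 1782 CPM on SM08502 and 1540 and 1464 CPM on the combination. On SM08502 the epithelial sum was also lower in Ishikawa and HEC265, and it overlapped vehicle in SNGM. The part of these markers in the results was not tested. In such bulk libraries, fewer cells with a transcript and less RNA per cell cannot be told apart. RefSeq places 27 of the 55 genes over another annotated gene, among them NDUFA3 over TFPT, NDUFB11 over RBM10, NDUFA5 over ASB15 and ATP5J2 over ATP5MF-PTCD1. The strand setting of the counting is not given in the sources used here, so reads of such neighbours could be shared.

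With SM08502, averaged over the 4 lines with equal weight, 15 of the 55 genes rose and 6 fell at an adjusted p under 0.05. The largest falls were in ATP5G1 and ATP5G2, which encode the c subunit, and in the complex I accessory subunits NDUFA3 and NDUFB8. The largest rises were in NDUFA12 and NDUFS4, accessory subunits of the matrix arm, in ATP5D, the delta subunit of the central stalk, in NDUFB11 and in the core subunit NDUFS7. The members that rose made up 27.3% and those that fell 10.9%, where 22.6% of the 17011 tested genes rose and 15.8% fell, so the counts lie near those of other genes. The median log2 difference was 0.11 over the members and 0.05 over all tested genes. Differences are of log2(CPM + 1), drug minus vehicle, tested with limma over all 32 libraries and adjusted over all 17011 genes. On recovered reads scaled by trimmed means (limma voom), the split was 11 higher and 10 lower. The changes thus ran in opposite directions within the same enzymes.

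By role, 3 of 7 core subunits of complex I rose and 0 fell (median log2 difference 0.16), and 4 of 9 accessory subunits of its NADH and ubiquinone-binding arm rose and 0 fell (median 0.23). In the proximal membrane arm 2 of 9 accessory subunits rose and 2 fell (median 0.08). In the distal membrane arm 3 of 11 rose and 1 fell (median 0.06). In ATP synthase 1 of 5 genes of the F1 head and central stalk rose and 0 fell (median 0.12), and 0 of 4 peripheral stalk genes passed the test (median 0.02), with 0 at an unadjusted p under 0.05 and 0 by voom. Of the 3 c-ring genes 2 fell and 0 rose (median -0.43), and of the 3 small membrane subunits 1 rose and 1 fell. NDUFA4 was at 0.24 (adjusted p = 0.127) and did not pass the test.

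**Figure D1:**
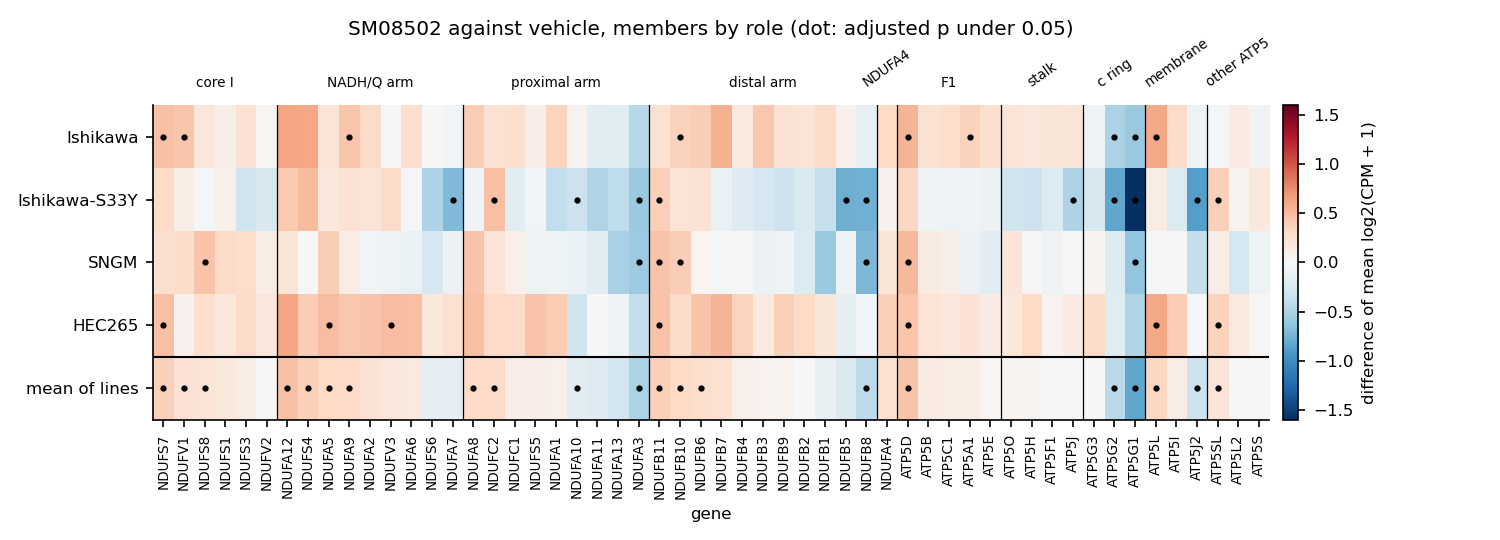
Log2 difference in log2(CPM + 1) of SM08502 against vehicle for 54 genes (horizontal, by role) in each of the 4 lines and as their mean (vertical); colour gives the difference, and a dot marks an adjusted p under 0.05. The deepest colour is that of ATP5G1 in Ishikawa-S33Y (-1.60), and falls and rises stand side by side within the same enzyme.

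ATP5G1, a source of the c subunit, was lower with SM08502 in every line. It measured 76.4 and 73.9 CPM on vehicle and 42.7 and 57.5 CPM on SM08502 in Ishikawa, and 49.1 and 50.1 CPM on vehicle and 16.9 and 14.7 CPM on SM08502 in Ishikawa-S33Y. It measured 48.4 and 37.3 CPM on vehicle and 27.8 and 26.5 CPM on SM08502 in SNGM, and 58.1 and 58.8 CPM on vehicle and 42.1 and 41.2 CPM on SM08502 in HEC265. Both SM08502 libraries lay below both vehicle libraries in all 4 lines, and the lowest values were those of Ishikawa-S33Y. The mean over lines fell by 0.82 on the log2 scale (0.565 times the vehicle level, SE 0.092, adjusted p = 5.86e-07). The fall was 0.59 in Ishikawa (adjusted p = 0.0336), 1.60 in Ishikawa-S33Y (adjusted p = 3.02e-06) and 0.63 in SNGM (adjusted p = 0.0384). In HEC265 the difference of -0.48 did not pass the test (adjusted p = 0.0893). The Ishikawa-S33Y call was kept in all 16 alternatives. The Ishikawa call was lost in 7 of 16, among them those without vehicle replicate 1, vehicle replicate 2 or SM08502 replicate 1 (adjusted p up to 0.216), and the SNGM call in 7, among them those without vehicle replicate 1 or either SM08502 replicate (up to 0.336).

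ATP5G2, another source of the c subunit, was also lower with SM08502. It measured 95.9 and 96.2 CPM on vehicle and 62.7 and 72.6 CPM on SM08502 in Ishikawa, and 82.1 and 76.8 CPM on vehicle and 45.7 and 42.7 CPM on SM08502 in Ishikawa-S33Y. It measured 72.5 and 60.8 CPM on vehicle and 57.5 and 57.0 CPM on SM08502 in SNGM, and 53.5 and 52.2 CPM on vehicle and 45.4 and 46.8 CPM on SM08502 in HEC265. Both SM08502 libraries lay below both vehicle libraries in each line, by little in SNGM and HEC265. The mean over lines fell by 0.43 (SE 0.064, adjusted p = 1.62e-05), with falls of 0.83 in Ishikawa-S33Y (adjusted p = 6.27e-05) and 0.50 in Ishikawa (adjusted p = 0.0107). The Ishikawa call was lost in 5 of 16 alternatives, among them those without either vehicle replicate or SM08502 replicate 1 (adjusted p up to 0.191). The differences were -0.21 (adjusted p = 0.4) in SNGM and -0.19 (adjusted p = 0.386) in HEC265, neither of which passed the test.

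ATP5G3, which encodes the same mature c subunit, did not follow. It measured 67.2 and 58.1 CPM on vehicle and 51.1 and 71.0 CPM on SM08502 in Ishikawa, and 55.6 and 55 CPM on vehicle and 47.4 and 44.8 CPM on SM08502 in Ishikawa-S33Y. It measured 84.7 and 71.2 CPM on vehicle and 80.5 and 79.3 CPM on SM08502 in SNGM, and 109.8 and 104 CPM on vehicle and 134 and 131 CPM on SM08502 in HEC265. The SM08502 libraries were below vehicle in Ishikawa-S33Y, above it in HEC265, and overlapped it in Ishikawa and SNGM. The mean difference over lines was 0.01 (SE 0.077, adjusted p = 0.945), and in no line did it pass the test (smallest adjusted p = 0.216, in HEC265). The difference between these 3 genes was not tested.

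ATP5G1P4, a pseudogene copy of ATP5G1 that the pseudogene names exclude from the set, was higher with SM08502. In Ishikawa-S33Y it measured 0.739 and 0.839 CPM on vehicle and 4.61 and 6.07 CPM on SM08502, below the ATP5G1 level in the same libraries. Its mean difference over lines was 1.15 (SE 0.11, adjusted p = 1.13e-07), and its highest value in any library was 7.40 CPM. Reads of such near-identical copies can be split by the counting, so both values are uncertain to that extent.

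**Figure D2:**
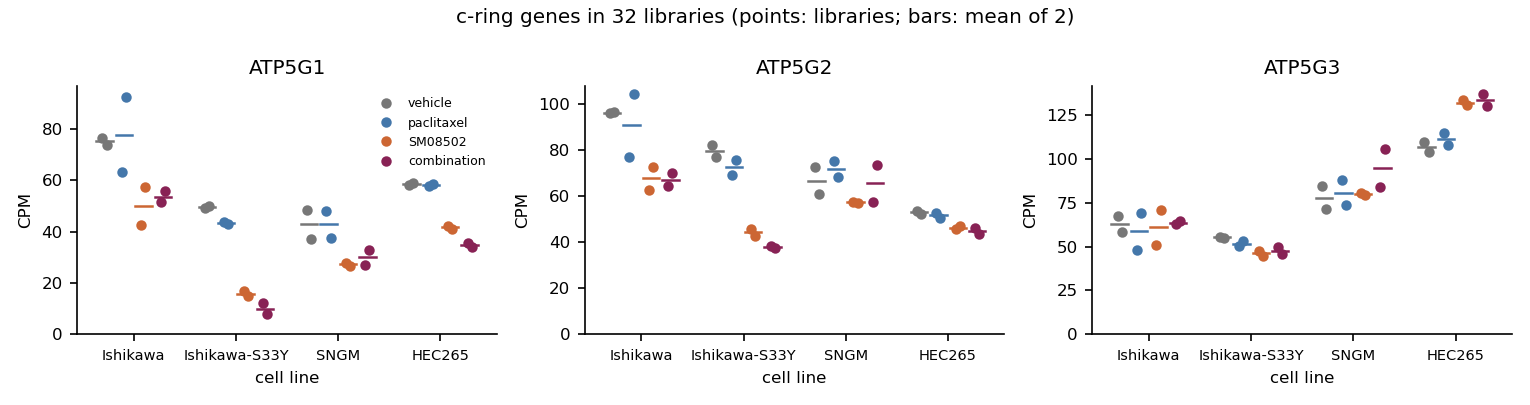
CPM of ATP5G1, ATP5G2 and ATP5G3 (a panel each) in all 32 libraries, grouped by line and coloured by treatment; each point is 1 library and each bar the mean of 2. ATP5G1 and ATP5G2 are lower in SM08502 and combination libraries of Ishikawa-S33Y, and ATP5G3 in HEC265 is higher (134 and 131 CPM on SM08502).

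NDUFA3 is a small membrane subunit of complex I. It measured 26.0 and 17.9 CPM on vehicle and 17.1 and 13.9 CPM on SM08502 in Ishikawa, and 24.0 and 26.6 CPM on vehicle and 16.0 and 16.8 CPM on SM08502 in Ishikawa-S33Y. It measured 17.8 and 15.1 CPM on vehicle and 12.2 and 9.33 CPM on SM08502 in SNGM, and 17.0 and 18.3 CPM on vehicle and 13.5 and 13.2 CPM on SM08502 in HEC265. Both SM08502 libraries lay below both vehicle libraries in all 4 lines. The mean over lines fell by 0.50 (SE 0.087, adjusted p = 0.000112), with falls that passed the test in Ishikawa-S33Y and SNGM.

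NDUFB8, an accessory subunit of the distal membrane arm, fell in Ishikawa-S33Y and SNGM. It measured 51.3 and 48.6 CPM on vehicle and 37.3 and 55.3 CPM on SM08502 in Ishikawa, and 45.9 and 44.1 CPM on vehicle and 25.8 and 26.1 CPM on SM08502 in Ishikawa-S33Y. It measured 40.7 and 33.9 CPM on vehicle and 23.8 and 20.6 CPM on SM08502 in SNGM, and 34.9 and 33.4 CPM on vehicle and 34.3 and 32.2 CPM on SM08502 in HEC265. The groups overlapped in Ishikawa and HEC265 and were apart in the other lines. The fall was 0.77 in Ishikawa-S33Y (adjusted p = 0.00144), 0.72 in SNGM (adjusted p = 0.00822) and 0.42 over the lines (adjusted p = 0.000439). The SNGM call was lost without vehicle replicate 1, without SM08502 replicate 2 or with the SNGM libraries alone (adjusted p up to 0.119).

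ATP5J2, the f subunit in the membrane part of ATP synthase, measured 144 and 114 CPM on vehicle and 94.8 and 154 CPM on SM08502 in Ishikawa, and 79.4 and 83.9 CPM on vehicle and 44.7 and 43.1 CPM on SM08502 in Ishikawa-S33Y. It measured 84.0 and 67.8 CPM on vehicle and 57.0 and 58.9 CPM on SM08502 in SNGM, and 81.5 and 84.0 CPM on vehicle and 82.0 and 82.8 CPM on SM08502 in HEC265. It was lower in Ishikawa-S33Y, lower in SNGM, and overlapped vehicle in Ishikawa and HEC265. It fell by 0.88 in Ishikawa-S33Y (adjusted p = 0.00312) and by 0.34 over the lines (adjusted p = 0.014). NDUFA10, a complex I accessory subunit, fell by 0.18 over the lines (adjusted p = 0.013).

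NDUFA12, an accessory subunit of the matrix arm, was the largest rise over the lines. It measured 96.2 and 71.8 CPM on vehicle and 114 and 148 CPM on SM08502 in Ishikawa, and 59.3 and 69.1 CPM on vehicle and 89.0 and 82.5 CPM on SM08502 in Ishikawa-S33Y. It measured 33.1 and 29.1 CPM on vehicle and 38.8 and 32.7 CPM on SM08502 in SNGM, and 43.1 and 49.6 CPM on vehicle and 67.3 and 77.7 CPM on SM08502 in HEC265. SM08502 libraries lay above vehicle in Ishikawa, Ishikawa-S33Y and HEC265 and overlapped it in SNGM. The mean rise was 0.47 (1.38 times vehicle, SE 0.11, adjusted p = 0.00157), and in no line alone did it pass the test (adjusted p 0.0503 in Ishikawa and 0.0518 in HEC265).

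ATP5D, the delta subunit that joins the central stalk to the c ring, rose in 3 lines. It measured 31.6 and 29.2 CPM on vehicle and 46.5 and 43.1 CPM on SM08502 in Ishikawa, and 41.4 and 39.1 CPM on vehicle and 52.6 and 48.9 CPM on SM08502 in Ishikawa-S33Y. It measured 23.4 and 23.3 CPM on vehicle and 34.6 and 33.4 CPM on SM08502 in SNGM, and 34.2 and 33.5 CPM on vehicle and 45.6 and 47.3 CPM on SM08502 in HEC265. Both SM08502 libraries lay above both vehicle libraries in all 4 lines. The rise over the lines was 0.46 (SE 0.062, adjusted p = 6.21e-06), and the rises in Ishikawa (0.54), SNGM (0.52) and HEC265 (0.44) passed the test. In Ishikawa the call was lost without vehicle replicate 2 or with that line alone, and in SNGM without either vehicle replicate, without SM08502 replicate 1 or with that line alone (adjusted p up to 0.15 and 0.101). In Ishikawa-S33Y the difference was 0.33 (adjusted p = 0.0532).

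NDUFS7, a core subunit that carries the last iron-sulphur cluster before ubiquinone, measured 17.6 and 17.8 CPM on vehicle and 24.9 and 24.9 CPM on SM08502 in Ishikawa, and 24.1 and 20.2 CPM on vehicle and 29.7 and 25.2 CPM on SM08502 in Ishikawa-S33Y. It measured 16.7 and 18.9 CPM on vehicle and 22.4 and 20.6 CPM on SM08502 in SNGM, and 23.5 and 23.0 CPM on vehicle and 32.3 and 33.4 CPM on SM08502 in HEC265. SM08502 libraries lay above vehicle in each line. The rise over the lines was 0.38 (SE 0.064, adjusted p = 8.48e-05). NDUFB11, a distal membrane subunit encoded on the X chromosome, measured 84.0 and 73.8 CPM on vehicle and 82.2 and 104 CPM on SM08502 in Ishikawa, and 50.3 and 50.1 CPM on vehicle and 63.5 and 68.3 CPM on SM08502 in Ishikawa-S33Y. It measured 29.3 and 27.3 CPM on vehicle and 38.0 and 40.1 CPM on SM08502 in SNGM, and 42.6 and 40.0 CPM on vehicle and 53.4 and 60.4 CPM on SM08502 in HEC265. The groups overlapped in Ishikawa and were apart in the other lines, and the rise over the lines was 0.38 (SE 0.065, adjusted p = 9.34e-05).

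NDUFS4, an accessory subunit of the matrix arm that is needed for its last assembly step, measured 25.6 and 20.1 CPM on vehicle and 28.4 and 43.9 CPM on SM08502 in Ishikawa, and 15.8 and 18.5 CPM on vehicle and 25.1 and 24.2 CPM on SM08502 in Ishikawa-S33Y. It measured 24.2 and 20.1 CPM on vehicle and 21.9 and 22.0 CPM on SM08502 in SNGM, and 16.1 and 17.8 CPM on vehicle and 22.3 and 22.7 CPM on SM08502 in HEC265. SM08502 libraries were higher in Ishikawa, Ishikawa-S33Y and HEC265 and overlapped vehicle in SNGM. The rise over the lines was 0.38 (adjusted p = 0.00877), and with limma voom on the recovered reads its adjusted p was 0.0548. The other rises over the lines ran from 0.21 in ATP5SL to 0.33 in ATP5L. They were in the core subunits NDUFV1 and NDUFS8, in the accessory subunits NDUFA5, NDUFA8, NDUFA9, NDUFB6, NDUFB10 and NDUFC2, and in ATP5L, a small membrane subunit of ATP synthase.

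**Figure D3:**
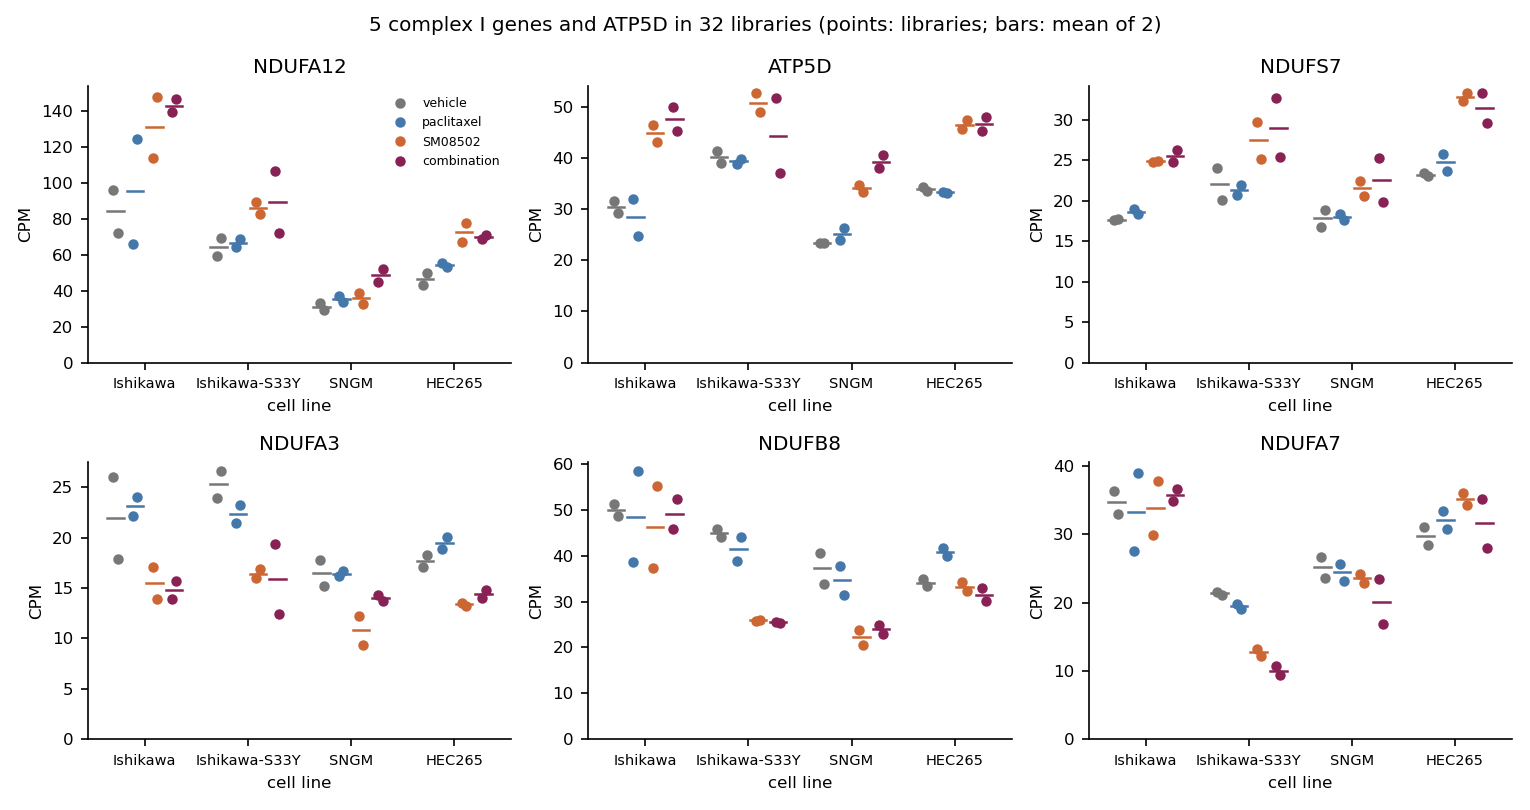
CPM of NDUFA12, ATP5D, NDUFS7, NDUFA3, NDUFB8 and NDUFA7 in all 32 libraries, by line and treatment; each point is 1 library and each bar the mean of 2. ATP5D and NDUFS7 are higher and NDUFA3 is lower on SM08502 than on vehicle in all 4 lines, and NDUFA7 is lower in Ishikawa-S33Y (13.2 and 12.2 CPM on SM08502).

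Among the subunits that carry the chemistry, NDUFV1, which binds FMN and NADH, rose by 0.23 over the lines (SE 0.07, adjusted p = 0.0119). NDUFS1, the large iron-sulphur subunit, differed by 0.16 (adjusted p = 0.105). ATP5A1 and ATP5B, the alpha and beta subunits of the F1 head, differed by 0.12 (adjusted p = 0.153) and 0.13 (adjusted p = 0.0774). These 3 did not pass the test. NDUFS1 passed in 4 of 27 alternatives, among them without Ishikawa SM08502 replicate 2 (lowest adjusted p over the 27, 0.000795). ATP5A1 passed in 1, without Ishikawa SM08502 replicate 1 (adjusted p = 0.0486), and ATP5B in 5, among them without Ishikawa vehicle replicate 1, Ishikawa SM08502 replicate 1 or SNGM vehicle replicate 1 (down to 0.00732). ATP5B measured 754 and 634 CPM on vehicle and 730.4 and 894 CPM on SM08502 in Ishikawa, and 727 and 746 CPM on vehicle and 716 and 699.9 CPM on SM08502 in Ishikawa-S33Y. It measured 354 and 281 CPM on vehicle and 339 and 357 CPM on SM08502 in SNGM, and 555 and 567 CPM on vehicle and 641 and 669 CPM on SM08502 in HEC265. Its SM08502 libraries overlapped vehicle in Ishikawa and SNGM, lay below it in Ishikawa-S33Y and above it in HEC265.

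Within single lines, the members that passed the test differed. In Ishikawa 7 genes rose and 2 fell (12.7% and 3.64%, against 6.5% and 8.68% of all genes): ATP5L, ATP5D, NDUFS7, NDUFA9, NDUFV1, ATP5A1 and NDUFB10 rose, and ATP5G1 and ATP5G2 fell. In Ishikawa-S33Y 3 rose and 9 fell (5.45% and 16.4%, against 18.5% and 10.6%). Its falls were ATP5G1, ATP5J2, ATP5G2, NDUFB5, NDUFB8, NDUFA7, NDUFA3, ATP5J and NDUFA10, between -1.60 and -0.34, and its rises NDUFC2, NDUFB11 and ATP5SL. In SNGM 4 rose and 3 fell (7.27% and 5.45%, against 3.8% and 4.06%): ATP5D, NDUFS8, NDUFB11 and NDUFB10 rose, and NDUFB8, ATP5G1 and NDUFA3 fell. In HEC265 7 rose, namely ATP5L, NDUFA5, NDUFV3, NDUFS7, NDUFB11, ATP5D and ATP5SL, and 0 fell (12.7%, against 9.27% that rose and 5.39% that fell). By limma at an unadjusted p under 0.05, 3 members were lower there. The split moved with the scaling: by limma voom it was 3 higher and 3 lower in Ishikawa, 0 higher and 13 lower in Ishikawa-S33Y and 3 higher and 3 lower in HEC265. With each library re-centred on its median it was 6 higher and 0 lower in Ishikawa, 0 higher and 8 lower in Ishikawa-S33Y and 3 higher and 1 lower in HEC265, and by quantile normalization 1 higher and 9 lower in Ishikawa-S33Y.

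These counts share 1 estimate of the spread over all 32 libraries. Fitted on the 8 libraries of a line alone, they moved further. Ishikawa and SNGM then had 0 calls by limma for SM08502, with 8 and 11 members at an unadjusted p under 0.05. Ishikawa-S33Y had 5 rises and 18 falls, and HEC265 33 rises and 4 falls. The share of all genes then called was 0.282% for Ishikawa and 0.735% for SNGM, next to 40.3% for Ishikawa-S33Y and 41.3% for HEC265. The calls named for Ishikawa and SNGM were therefore made with the shared estimate only.

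Among the largest changes of single lines, ATP5L, the g subunit in the membrane part of ATP synthase, rose in Ishikawa and HEC265. It measured 61.5 and 45.5 CPM on vehicle and 67.5 and 97.0 CPM on SM08502 in Ishikawa, and 34.5 and 36.5 CPM on vehicle and 54.5 and 55.5 CPM on SM08502 in HEC265. The rise was 0.60 in Ishikawa (adjusted p = 0.0328) and 0.62 in HEC265 (adjusted p = 0.0289). The Ishikawa call was lost without vehicle replicate 2 or SM08502 replicate 2, and the HEC265 call without any of its 4 libraries (adjusted p up to 0.391 and 0.17). NDUFA5, an accessory subunit of the matrix arm, measured 38.6 and 40.4 CPM on vehicle and 53.9 and 58.5 CPM on SM08502 in HEC265, a rise of 0.50 (adjusted p = 0.0219), lost without any of these 4 libraries (up to 0.17). NDUFC2, a membrane arm subunit, measured 121 and 112 CPM on vehicle and 156 and 169 CPM on SM08502 in Ishikawa-S33Y, a rise of 0.48 (adjusted p = 0.027), also lost without any of the 4 (up to 0.163). NDUFS8, a core iron-sulphur subunit, measured 30.6 and 31.0 CPM on vehicle and 43.0 and 42.4 CPM on SM08502 in SNGM. Its rise of 0.46 (adjusted p = 0.00884) was lost without either vehicle replicate or SM08502 replicate 1 (up to 0.0807). The groups of these 4 genes did not overlap in the lines named. Scaling mattered as well: the calls of ATP5L in HEC265, NDUFA5 and NDUFC2 were lost with re-centring, quantile normalization or limma voom. That of ATP5L in Ishikawa was lost with limma voom.

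The median difference over the 55 genes was 0.21 for Ishikawa, -0.11 for Ishikawa-S33Y, -0.01 for SNGM and 0.29 for HEC265. Over all tested genes it was 0.00, 0.11, 0.00 and 0.07. Between the 2 Ishikawa SM08502 libraries themselves the members differed by a median of -0.46, replicate 1 minus replicate 2. That gap was wider than the Ishikawa median of 0.21. Without the second Ishikawa SM08502 library the Ishikawa median was -0.01, and the SNGM median was 0.12 without its first vehicle library, 0.05 without its second SM08502 library and 0.01 after re-centring each library on its median. The counts rested on single libraries, since leaving a library out leaves 1 sample in its group. Ishikawa had 1 call without vehicle replicate 2, 18 without SM08502 replicate 1 and 3 without SM08502 replicate 2. Without 1 of their 4 vehicle and SM08502 libraries, whichever it was, Ishikawa-S33Y gave 5 to 7 calls, SNGM 1 to 2 and HEC265 0 to 1.

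The SM08502 difference itself varied among the 4 lines for 3 of the 55 genes, by an F test with 3 degrees of freedom, where 12.4% of all genes varied. They were ATP5G1 (adjusted p = 0.0163), NDUFA7 (adjusted p = 0.0324) and ATP5G2 (adjusted p = 0.0469). Each was lowest in Ishikawa-S33Y relative to its vehicle. NDUFA7, an accessory subunit of the matrix arm, measured 36.4 and 33 CPM on vehicle and 29.9 and 37.8 CPM on SM08502 in Ishikawa, and 21.5 and 21.1 CPM on vehicle and 13.2 and 12.2 CPM on SM08502 in Ishikawa-S33Y. It measured 26.7 and 23.6 CPM on vehicle and 24.2 and 22.9 CPM on SM08502 in SNGM, and 31.0 and 28.4 CPM on vehicle and 36.0 and 34.3 CPM on SM08502 in HEC265. SM08502 libraries lay below vehicle in Ishikawa-S33Y, above it in HEC265, and overlapped it in the other lines. It fell by 0.71 in Ishikawa-S33Y (adjusted p = 0.00198), and the differences elsewhere were -0.04, -0.09 and 0.24, with no call. ATP5G1 lost its F test call in 3 of 27 alternatives, those without either Ishikawa-S33Y vehicle replicate or SM08502 replicate 2 (adjusted p up to 0.104). NDUFA7 lost it in 10, 8 of them leaving out a vehicle or SM08502 library of Ishikawa-S33Y or HEC265 (up to 0.135), and ATP5G2 in 18 (up to 0.167). The F test made 14 calls without the first Ishikawa SM08502 library, 1 without the first Ishikawa-S33Y SM08502 library or any vehicle or SM08502 library of HEC265, and 0 without either Ishikawa-S33Y vehicle library or the second Ishikawa-S33Y SM08502 library.

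With paclitaxel and SM08502 together, 19 of the 55 genes rose and 7 fell over the lines, 34.5% and 12.7%, where 29% of all genes rose and 20.1% fell. The median was 0.12 over the members and 0.04 over all genes. These comparisons use the same vehicle libraries as those of SM08502, and the combination was not tested against SM08502 here. The falls were ATP5G1 (-0.99, adjusted p = 2.68e-08), ATP5G2 (-0.46, adjusted p = 5.08e-06), NDUFA3, ATP5J2, NDUFB8, NDUFA7 and NDUFA10. The largest rises were NDUFA12 (0.61, adjusted p = 8.54e-05), NDUFS4 (0.48, adjusted p = 0.000941), ATP5D (0.48) and NDUFB11 (0.46). Without the 2 shallow libraries 19 rose and 8 fell, and by limma voom 9 rose and 10 fell.

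ATP5G1 measured 51.5 and 55.8 CPM on the combination in Ishikawa, 12.1 and 7.69 CPM in Ishikawa-S33Y, 26.9 and 33 CPM in SNGM and 35.7 and 33.8 CPM in HEC265. All 8 libraries lay below the vehicle libraries of their line, and the lowest, the shallow Ishikawa-S33Y library, rested on 23 reads. Of all tested genes 32.6%, 30.9%, 18.5% and 25.2% lay wholly below vehicle in these lines, in the same order. The fall in Ishikawa-S33Y was 2.25 on the log2 scale (0.211 times vehicle, adjusted p = 1.57e-08), or 1.95 without the 2 shallow libraries (adjusted p = 5.41e-07). It was 0.73 in HEC265 (adjusted p = 0.00686). In Ishikawa and SNGM the differences of -0.48 (adjusted p = 0.0649) and -0.50 (adjusted p = 0.064) did not pass the test, the SNGM difference passing without them (-0.64, adjusted p = 0.0378).

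By line, the combination raised 13 and lowered 2 members in Ishikawa (23.6% and 3.64%, against 11.6% and 11.2% of all genes). It raised 5 and lowered 10 in Ishikawa-S33Y (9.09% and 18.2%, against 24% and 18%), or 6 and 8 without the shallow libraries. In SNGM it raised 8 and lowered 1 (14.5% and 1.82%, against 10.8% and 7.54%), or 5 and 1 without them. In HEC265 it raised 8 and lowered 2 (14.5% and 3.64%, against 12.4% and 7.16%). By limma voom the split was 9 higher and 3 lower in Ishikawa, 1 higher and 12 lower in Ishikawa-S33Y, 2 higher and 2 lower in SNGM and 2 higher and 4 lower in HEC265. With re-centring it was 12 higher and 0 lower in Ishikawa and 2 higher and 2 lower in HEC265, and by quantile normalization 2 higher and 2 lower in HEC265. The medians over the members were 0.32, -0.21, 0.13 and 0.24 in the same order of lines, and over all genes 0.03, 0.06, 0.00 and 0.09. As examples chosen after their values were seen, ATP5D in SNGM measured 23.4 and 23.3 CPM on vehicle and 37.9 and 40.4 CPM on the combination, a rise of 0.72 (adjusted p = 0.000419). In Ishikawa-S33Y NDUFA7 fell by 1.02 (adjusted p = 2.85e-05). Leaving out a library gave 4 to 16 calls in Ishikawa, 12 to 20 in Ishikawa-S33Y, 5 to 12 in SNGM and 0 to 2 in HEC265. In Ishikawa there were 4 without vehicle replicate 2 or combination replicate 2 and 5 without combination replicate 1, and in SNGM 5 without vehicle replicate 2 or combination replicate 2. In HEC265 each of the 4 libraries, left out, lowered the 10 calls to 2 or fewer. Fitted on the 8 libraries of a line alone, the combination gave 30 calls in Ishikawa-S33Y, against 51.7% of all genes, and 36 calls in HEC265, against 47.2%. SNGM then had 4 calls (3.36% of all genes) and Ishikawa 0 by limma (2.13% of all genes), with 12 of its members at an unadjusted p under 0.05.

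Paclitaxel alone gave no member call: by limma, 0 of 55 passed in any line or over the lines. Of all genes 0.0118% passed in Ishikawa, 0% in Ishikawa-S33Y, 0.0176% in SNGM, 0.00588% in HEC265 and 0% over the lines. At an unadjusted p under 0.05 in this fit over all 32 libraries, the members numbered 0 in every single line and 1 over the lines. That gene was NDUFA1, a small membrane subunit of complex I. Fitted on the 8 libraries of a line alone, 9 members were under 0.05 unadjusted in HEC265 and 0 in the other lines. No member was called then, and 0% of all genes passed in each line. limma voom on the recovered reads also made 0 calls. NDUFA1 differed by 0.21 over the lines (unadjusted p = 0.0437, adjusted p = 1). The largest difference in a single line, chosen after its value was seen, was that of ATP5I, the e subunit of ATP synthase, in Ishikawa, which measured 55.3 and 42.8 CPM on vehicle and 48.8 and 79.0 CPM on paclitaxel. The groups overlapped, and the difference was 0.35 (adjusted p = 0.734). ATP5G1 measured 43.8 and 43.1 CPM on paclitaxel in Ishikawa-S33Y, next to 49.1 and 50.1 CPM on vehicle, with a difference of -0.19 (adjusted p = 1). These values do not show that paclitaxel leaves the genes unaltered, since 2 libraries a group limit what can be seen.

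On vehicle, the lines differed in most of these genes. By the F test over the 4 vehicle means 50 of 55 differed, where 86.9% of all genes did, and NDUFS5, ATP5L, NDUFB2, NDUFS4 and ATP5I did not pass. The highest vehicle mean of a gene was in Ishikawa for 39 genes, in HEC265 for 12, in Ishikawa-S33Y for 3 and in SNGM for 1. The lowest was in SNGM for 35 genes, in HEC265 for 11, in Ishikawa-S33Y for 5 and in Ishikawa for 4. This order was not counted over all tested genes, so it does not set the members apart from other genes. The smallest p were those of NDUFS3, a core subunit of complex I (adjusted p = 7.6e-10), and ATP5B (adjusted p = 9.52e-09).

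NDUFS3 measured 90.7 and 82.1 CPM in Ishikawa, 57.7 and 55 CPM in Ishikawa-S33Y, 24.0 and 20.9 CPM in SNGM and 51.4 and 50.4 CPM in HEC265. Ishikawa stood highest and SNGM lowest, and Ishikawa-S33Y and HEC265 lay close together between them. ATP5B measured 754 and 634 CPM in Ishikawa, 727 and 746 CPM in Ishikawa-S33Y, 354 and 281 CPM in SNGM and 555 and 567 CPM in HEC265. Its order was the same at the bottom, with SNGM lowest, while Ishikawa and Ishikawa-S33Y overlapped. ATP5E, the epsilon subunit of the central stalk, measured 305 and 207 CPM in Ishikawa, 235 and 273 CPM in Ishikawa-S33Y, 109 and 93.3 CPM in SNGM and 83.9 and 87.1 CPM in HEC265, so that both Ishikawa lines stood above SNGM and HEC265. ATP5G3 measured 67.2 and 58.1 CPM in Ishikawa, 55.6 and 55 CPM in Ishikawa-S33Y, 84.7 and 71.2 CPM in SNGM and 109.8 and 104 CPM in HEC265, highest in HEC265.

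Between Ishikawa-S33Y and Ishikawa 2 members were higher and 22 lower in Ishikawa-S33Y (3.64% and 40.0%, against 20% and 28.2% of all genes), with a median of -0.31 against -0.05, and 14 were called without Ishikawa-S33Y vehicle replicate 1. The split was 6 higher and 17 lower by quantile normalization and 5 higher and 18 lower by limma voom. The largest differences downward were in NDUFB6 (-1.18, adjusted p = 3.92e-05), NDUFA4 (-1.0, adjusted p = 0.00178) and ATP5F1, the b subunit of the peripheral stalk (-0.90, adjusted p = 0.000183). NDUFB6 measured 77.1 and 74.5 CPM in Ishikawa and 33.5 and 32.1 CPM in Ishikawa-S33Y. NDUFS1 (0.41, adjusted p = 0.0354) and ATP5D (0.39, adjusted p = 0.0122) were higher. The NDUFS1 call was lost without Ishikawa vehicle replicate 1 or either Ishikawa-S33Y vehicle replicate, and the ATP5D call without Ishikawa vehicle replicate 2 or Ishikawa-S33Y vehicle replicate 1 (adjusted p up to 0.317 and 0.0879 over those). The catalytic subunits NDUFV1 (0.32, adjusted p = 0.0643), ATP5A1 (0.27, adjusted p = 0.0841) and ATP5B (0.09, adjusted p = 0.562) did not pass the test. NDUFV1 passed in 6 of 16 alternatives, among them limma voom, without the 2 shallow libraries and without Ishikawa vehicle replicate 1 (adjusted p down to 0.00687). ATP5A1 passed in 3, namely quantile normalization, a score of transcript length as a covariate, and without Ishikawa vehicle replicate 1 (down to 0.0128).

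SNGM stood below Ishikawa-S33Y in 28 members and above it in 1 (50.9% and 1.82%, against 32.7% and 28.1% of all genes; median -0.44 against -0.05), with the largest differences in ATP5E (-1.32, adjusted p = 1.3e-05) and NDUFS3 (-1.29, adjusted p = 7.07e-08). The gene above was ATP5G3 (0.48, adjusted p = 0.00992, not called without the first SNGM vehicle library). SNGM stood below HEC265 in 26 members and above it in 2 (47.3% and 3.64%, against 26% and 28.9%; median -0.31 against 0.04). NDUFS3 (-1.15, adjusted p = 5.61e-07) and NDUFS6 (-1.14, adjusted p = 0.00702) led those. Without HEC265 vehicle replicate 1 the calls numbered 18. ATP5G2 (0.32, adjusted p = 0.036) and ATP5L2 (0.63, adjusted p = 0.0111) were above. ATP5L2 measured 0.319 and 1.11 CPM in SNGM and 0.0445 and 0.116 CPM in HEC265. The 2 libraries that carried it over the limit of 1 CPM were both of SNGM. The filter thus favoured this direction, and no conclusion is drawn from its call. The ATP5G2 call was lost without the first SNGM or either HEC265 vehicle library, and that of ATP5L2 without the second SNGM or the first HEC265 vehicle library (adjusted p up to 0.302 and 0.299).

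HEC265 stood below Ishikawa-S33Y in 13 members and above it in 8 (23.6% and 14.5%, against 31.4% and 26.6% of all genes). The lower ones were led by ATP5E (-1.56, adjusted p = 1.49e-06) and NDUFB1 (-1.02, adjusted p = 0.00178), the higher ones by ATP5G3 (0.94, adjusted p = 1.92e-05) and NDUFV1 (0.85, adjusted p = 1.75e-05). NDUFV1 measured 30.0 and 24.9 CPM in Ishikawa, 34.7 and 34 CPM in Ishikawa-S33Y, 44.9 and 39.9 CPM in SNGM and 63.5 and 62.1 CPM in HEC265. The median of -0.14 (all genes -0.08) turned to 0.04 when each library was re-centred on its median, where that of all genes was 0.11. For SNGM against Ishikawa-S33Y re-centring moved the median of all genes from -0.05 to 0.07 and that of the members from -0.44 to -0.33. The calls then split as 11 higher and 3 lower for HEC265 (6 higher and 16 lower by quantile normalization) and 4 higher and 21 lower for SNGM. In each comparison, every called member kept its sign under re-centring, quantile normalization and limma voom.

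**Figure D4:**
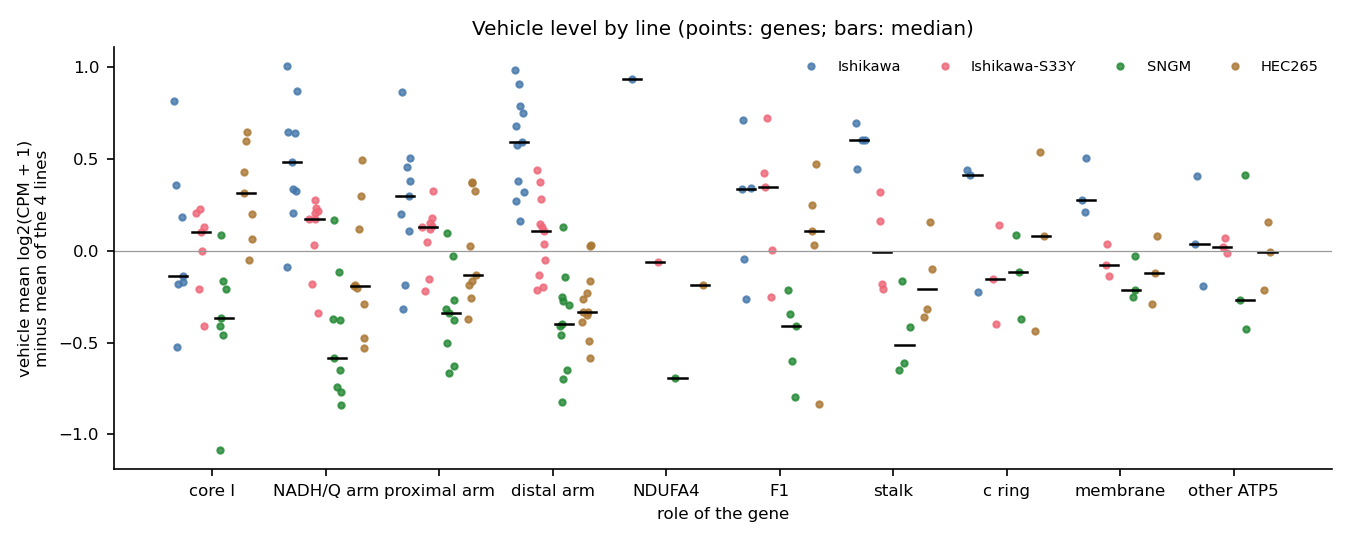
Vehicle level of each gene, as its mean log2(CPM + 1) in a line minus its mean over the 4 lines, for the members grouped by role; each point is 1 gene in 1 line. Most Ishikawa points lie above 0 and most SNGM points below it, with 39 genes highest in Ishikawa and 35 lowest in SNGM. The same order was not counted over all genes.

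Ishikawa and SNGM, at the ends of these levels, also stood at the ends of the balance of short and long transcripts. A length score summarised it: 53 long-transcript genes averaged on the log2(CPM + 1) scale, less the same average over 76 cytosolic ribosomal protein genes, whose transcripts are short. No gene lengths entered this score, and a change in the ribosomal protein genes alone would also move it. The score ran from -3.44 to -1.83 in the 8 Ishikawa libraries, -2.05 to -1.5 in Ishikawa-S33Y, -1.40 to -0.98 in HEC265 and -1.07 to -0.28 in SNGM. The median deviation of the 55 genes from each gene's own mean over all libraries ran from 0.16 to 0.71 in Ishikawa, -0.34 to 0.02 in Ishikawa-S33Y, -0.12 to 0.11 in HEC265 and -0.55 to -0.28 in SNGM. Within Ishikawa the 2 paclitaxel libraries scored -1.83 and -3.44 and deviated by 0.18 and 0.69, so the level also differed between these replicates. Ishikawa-S33Y did not follow: its vehicle libraries scored -1.53 and -1.67 and deviated by 0.02 and 0.02. Its SM08502 libraries scored -1.68 and -1.71 and deviated by -0.11 and -0.13. The first combination library of that line scored -2.05 and deviated by -0.10.

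Of 76 ribosomal protein genes 1 was higher and 31 were lower in Ishikawa-S33Y than in Ishikawa, and of 53 long-transcript genes 35 were higher and 3 lower. Among all tested genes 20% were higher and 28.2% lower. With the length score as a covariate, the median of the members between these lines was 0.09 in place of -0.31, that of all genes -0.20 in place of -0.05, and 11 members were called in place of 24. NDUFA4 lost its call (-0.12, adjusted p = 0.466), and NDUFB6 and ATP5F1 kept theirs with smaller differences of -0.52 (adjusted p = 0.00214) and -0.29 (adjusted p = 0.00925). For SM08502 over the lines the median of the members was then 0.03 and that of all genes 0.06. ATP5G1, NDUFA3, ATP5G2, NDUFB8, ATP5J2, NDUFA12, ATP5D, NDUFB11, NDUFS7 and NDUFS4 kept their calls over the lines with it. RNA input, line and this score cannot be told apart in the comparison of Ishikawa with Ishikawa-S33Y.

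**Figure D5:**
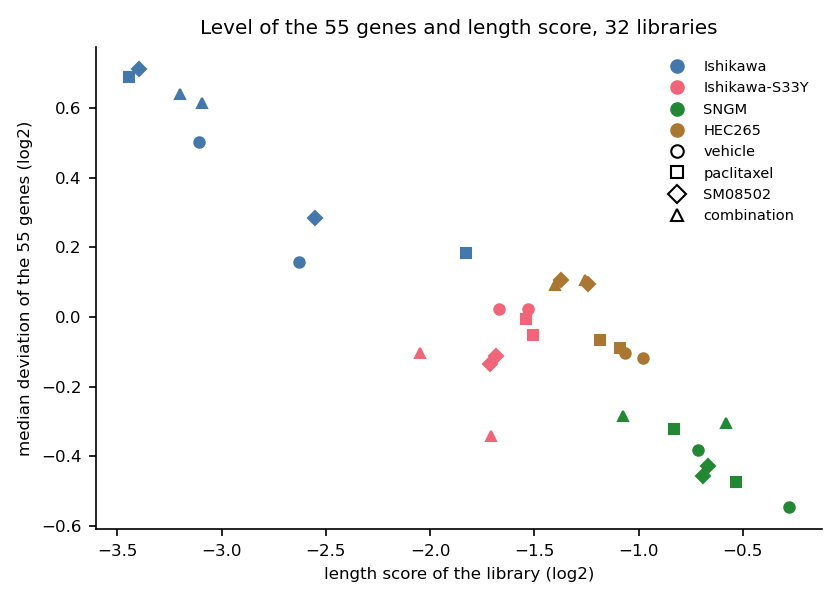
Median deviation of the 55 genes from each gene's mean over the 32 libraries (vertical, log2) against the length score of the library (horizontal, log2); each point is 1 library, coloured by line, with its treatment as the symbol. Ishikawa libraries lie at the upper left and SNGM libraries at the lower right; the libraries share lines and treatments, so the points are not independent.

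Genes that work with these enzymes were counted in the same SM08502 comparison over the lines, where 22.6% of all genes rose and 15.8% fell, with a median of 0.05. Of 15 complex I assembly factors tested, 9 rose and 0 fell (median 0.25), led by NDUFAF5 (0.58, adjusted p = 9.26e-05), NDUFAF1 (0.58, adjusted p = 0.000172) and ECSIT (0.57, adjusted p = 3.46e-05). Of 5 assembly factors and regulators of ATP synthase 2 rose and 1 fell (median 0.11): TMEM242 (0.66, adjusted p = 8.61e-07) and TMEM70 (0.29, adjusted p = 0.0158) rose, and ATPAF2, a chaperone of the alpha subunit, fell (-0.23, adjusted p = 0.0161). In all, 0 of the 13 mitochondrially encoded subunits passed by limma (median -0.09), with 0 at an unadjusted p under 0.05 and 0 by voom. Of complex II 0 of 4 genes passed (median 0.10, likewise 0 unadjusted and 0 by voom), of complex III 4 rose and 1 fell of 9 (median 0.14), and of complex IV 1 rose and 0 fell of 10 (median 0.13). The complex III gene that fell was UQCRC2, a core subunit (-1.24, adjusted p = 2.91e-09), with -0.82 for Ishikawa, -1.85 for Ishikawa-S33Y, -1.02 for SNGM and -1.26 for HEC265, all past the test. It is named here after its values were seen.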

How the data were processed

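RNA from 32 cultures (16 groups of 2) was sequenced on a NovaSeq 6000 after ribosomal RNA depletion, per the labels' protocols. The authors deposited a table of log10(CPM + 1) values per gene symbol. bcl2fastq, kallisto, STAR and GRCh38 are named in the submitters' processing notes, with no role, version or strand setting given in the sources used here. The values gave whole reads for 100% of entries (within 0.05 of a read), so depth is known, and CPM was computed back from the deposited log10 values.

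Genes above 1 CPM in at least 2 libraries were tested with limma 3.58.1 in R 4.3.3 (intensity trend, empirical Bayes) on log2(CPM + 1), with a pseudocount of 1, 1 mean per group, 16 residual degrees of freedom, two-sided tests and Benjamini-Hochberg adjustment over 17011 genes. Fold changes are on that scale and understate changes of low genes. The main fit was also run on simulated counts, for SM08502 against vehicle in HEC265 only. Those counts had the same dispersion in every group and no differences between lines. They cannot show how the shared estimate behaves where the spread differs between lines. limma voom on the recovered reads used trimmed mean of M values (TMM) factors. Other alternatives were no filter, a mean of at least 2, a pseudocount of 0.1, re-centring, quantile normalization, no trend, single lines, a replicate block, the length score, and left-out libraries. Replicate numbers came from the labels. Promoters were read with Python 3.11.15.

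The members, lists and tests were chosen with earlier results of these data known, and the motif letters after the windows had been seen and longer letters had been searched. Named with values were 4 fixed catalytic subunits, the 5 largest called changes each way for SM08502 over the lines, 2 to 3 each way elsewhere, and the 2 smallest p in each F test. Values of 1 member named by the rule are not reported here. No gene lengths were used, so levels are not compared between genes.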

Additional observations from a re-analysis of the deposited data

Results flagged for a closer look

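The change with SM08502 differed among the 4 lines for 3 genes by the F test of limma, adjusted over 17011 genes. For ATP5G1 the adjusted p was 0.0163, with log2 differences of -0.59 (Ishikawa), -1.60 (Ishikawa-S33Y, at 85 nM), -0.63 (SNGM, at 350.7 nM) and -0.48 (HEC265, at 149 nM), where the Ishikawa dose was 80 nM. For NDUFA7 it was 0.0324, with -0.04, -0.71, -0.09 and 0.24 in the same order. For ATP5G2 it was 0.0469, with -0.50, -0.83, -0.21 and -0.19. Of 27 alternatives, 3 lost the call of ATP5G1, 10 that of NDUFA7 and 18 that of ATP5G2.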

How the results depend on the processing

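Counts are of members called of 55. The share of all genes called is given above for the drugs with single lines, and not for the other alternatives. The counts therefore show how the calls moved with the setting, and not how the members compare with other genes. Of 15 named calls over the lines 14 held in every alternative run for them, the exception being NDUFS4 with voom. Fits on single lines alone do not apply to such means. How these calls depend on the spread shared between lines was therefore not tested. With no filter SM08502 in Ishikawa gave 4 and the F test 1. Lines stand in the order Ishikawa, Ishikawa-S33Y, SNGM, HEC265. With single lines alone SM08502 gave 0, 23, 0 and 37, the combination 0, 30, 4 and 36, and HEC265 against Ishikawa-S33Y 37. With the length score SM08502 gave 15, 29, 15 and 18, paclitaxel in Ishikawa 2, the combination 37, 16 and 17 in Ishikawa-S33Y, SNGM and HEC265, the F test 26 and Ishikawa-S33Y against Ishikawa 11. Re-centring gave 3 and 4 for SM08502 in SNGM and HEC265, 4 for the combination in HEC265 and 1 for the F test. Quantile normalization gave 3 and 3, 4, and 18 for SNGM against HEC265. A mean of at least 2 gave 12 for SM08502 in HEC265, voom 4 and 6 for the combination in SNGM and HEC265. Without the 2 shallow libraries SM08502 in HEC265 gave 13 and the F test 6.

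Leaving out single libraries gave 1 to 18, 5 to 7, 1 to 2 and 0 to 1 for SM08502 in the 4 lines, 0 to 1 for paclitaxel in Ishikawa, 4 to 16, 5 to 12 and 0 to 2 for the combination in Ishikawa, SNGM and HEC265, 0 to 14 for the F test, 14 to 22 for Ishikawa-S33Y against Ishikawa and 18 to 24 for SNGM against HEC265. The cause of the changes was not tested, beyond fewer libraries.

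With the replicate block, SM08502 gave 10, 13, 7 and 9 by line and 22 over the lines, the combination 19, 18, 9 and 11 and 26, paclitaxel 0, the F tests 4 and 50, and it moved no count by over 1.5 times. Replicate differences correlated between treatments by -0.57 to 0.86 in Ishikawa, -0.12 to 0.14 in Ishikawa-S33Y, -0.65 to 0.84 in SNGM and -0.15 to 0.33 in HEC265, so the numbers do not pair the samples. The replicate block with crossed numbers, chosen after seeing the data, gave 15 for SM08502 in HEC265, 23 and 17 for the combination in Ishikawa and HEC265, and 9 for the F test.

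The sign turned for NDUFS1 in Ishikawa-S33Y against Ishikawa with the length score (-0.052). Leaving out single libraries gave -0.034 to 0.21 for ATP5B in that comparison, the lowest without Ishikawa vehicle replicate 2 and the highest without Ishikawa vehicle replicate 1. The values below 0 were not called. The combination against SM08502 was not fitted.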

Other observations

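Among 14 regulators of mitochondrial gene expression, 3 rose and 2 fell with SM08502 over the lines (median 0.02), where 22.6% of all genes rose and 15.8% fell (median 0.05), so the counts lie near those of all genes. TFAM, which packages and transcribes mitochondrial DNA (0.37, adjusted p = 3.9e-05), MTERF1, a factor that ends mitochondrial transcription (0.42, adjusted p = 0.000143), and NRF1, an activator of respiratory chain genes (0.18, adjusted p = 0.0118), rose. PPARGC1A, a coactivator of mitochondrial biogenesis (-0.47, adjusted p = 0.000526), and TFB1M, a ribosomal RNA methyltransferase of mitochondria (-0.35, adjusted p = 0.000393), fell. These are means over lines. NRF1 differed by -0.33 in SNGM and 0.10 in HEC265, and PPARGC1A by -0.06 and 0.03, none of which passed the test. TFAM, MTERF1 and TFB1M kept the sign of their mean in both of these lines. With the combination 29% of all genes rose and 20.1% fell (median 0.04). Of the regulators 6 rose and 4 fell (median 0.11), 10 of 15 complex I assembly factors rose and 1 fell (median 0.25), and 0 of 13 mitochondrially encoded subunits passed by limma (median -0.31; 0 at an unadjusted p under 0.05, and by limma voom 2 lower). The comparisons share the vehicle libraries.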
